A study of Homo sapiens with 16 samples.

Results

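The endothelin system was followed through 4 genes, EDN1, EDNRA, EDNRB and ECE1, by taking the row of each gene from every deposited count table. These are 4 of the 20314 genes listed for U251 cells and of the 20626 listed for U343 cells, with 20314 genes listed for both lines. EDN1 entered the set because its change after miR-137 transfection had opposite signs in the 2 cell lines, so its response to miR-137 is described here without a test. U251 and U343 are established human glioblastoma cell lines. Both were reverse transfected in dishes with a mimic of miR-137 or with a control mimic, each at 25 nM, and total RNA was harvested after 48 h. Each transfection was measured by RNASeq of total RNA and by RIPSeq, which sequences the RNA recovered with antibodies against poly(A)-binding protein (PABP). Line, assay and transfection give 8 groups of 2 libraries, 16 in all, and the labels carry no other treatment or genetic change. All libraries were depleted of ribosomal RNA. The cDNA of U251 was made with random hexamers and that of U343 with a TotalScript kit, before a Nextera preparation in both lines, so cell line and library kit cannot be told apart. No immunoprecipitation with a control antibody is among these 16 libraries.

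Endothelins are short peptides that constrict blood vessels and act as growth and survival signals for several tumour types, including glioma. The precursor protein made from EDN1 is cut by a furin-type convertase and then by endothelin-converting enzyme, the product of ECE1, to give the active peptide endothelin-1. Endothelin-1 binds the G protein-coupled receptors endothelin A (EDNRA) and endothelin B (EDNRB), which signal through phospholipase C, calcium and protein kinase C, and in the brain EDNRB is best known from astrocytes.

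The transfected RNA is shown because every comparison with a control mimic turns on it. A microRNA pairs with its targets mainly through its seed, bases 2 to 8, which are in capitals in the mature sequence taken from RefSeq (GRCh38.p14, chromosome 1, 98046091 to 98046113, minus strand, 23 bases).
hsa-miR-137-3p: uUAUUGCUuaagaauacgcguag
Pairing sites in the 4 transcripts were not analysed here.

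Depth was 10156675 to 18224061 counted reads per library for U251 RNASeq, 22359794 to 30731476 for U251 RIPSeq, 37952273 to 45134766 for U343 RNASeq and 37736206 to 45055184 for U343 RIPSeq. Levels are given as CPM, which are read counts divided by library size, after TMM scaling over the 8 libraries of a line, and they were compared between libraries of 1 gene, not between genes. In 2 groups the replicates stood apart from each other. The U251 RIPSeq controls had a median absolute log2 ratio per gene of 0.703, against 0.065 to 0.236 in the other 7 groups. In U343 RNASeq, miR-137 replicate 1 had a summed level of 154 CPM over 12 interferon-induced genes, close to the controls at 205 and 211 CPM, while miR-137 replicate 2 had 12900 CPM and the other 6 miR-137 libraries 11500 to 13200 CPM. Of 7 glioma and astrocyte markers, all were detected in both lines, although AQP4 had 0 reads in the U251 RNASeq controls, and GFAP stood at 30.59 and 32.43 CPM in those controls against 3079 to 4561 CPM in U343 RNASeq.

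EDN1, which encodes the endothelin-1 precursor (hg18, chromosome 6, 12398515 to 12405413, plus strand), was lower after miR-137 in U251 and higher in U343, in total and in PABP-bound RNA. In U251 RNASeq it stood at 233.2 and 207.2 CPM in the controls and at 79.85 and 75.03 CPM with miR-137. In U251 RIPSeq it stood at 455.5 and 602.6 CPM in the controls and at 255.6 and 255.3 CPM with miR-137. All 4 U251 control libraries exceeded the miR-137 libraries of their assay, and the groups did not overlap. In U343 RNASeq the controls had 44.5 and 35.89 CPM and the miR-137 libraries 92.67 and 108.9 CPM. In U343 RIPSeq the controls had 22.58 and 19.07 CPM and the miR-137 libraries 60.4 and 43.05 CPM. Here the order was the other way round, with both miR-137 libraries above both controls in each assay. The fitted change was 2.77-fold lower in U251 RNASeq (log2 -1.47, SE 0.13) and 2.17-fold lower in U251 RIPSeq (log2 -1.12, SE 0.20). It was 2.52-fold higher in U343 RNASeq (log2 1.33, SE 0.15) and 2.49-fold higher in U343 RIPSeq (log2 1.32, SE 0.16). Since these values chose the gene, they are a description. In bulk RNA, fewer cells expressing a gene and less RNA per cell cannot be told apart.

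**Figure D1:**
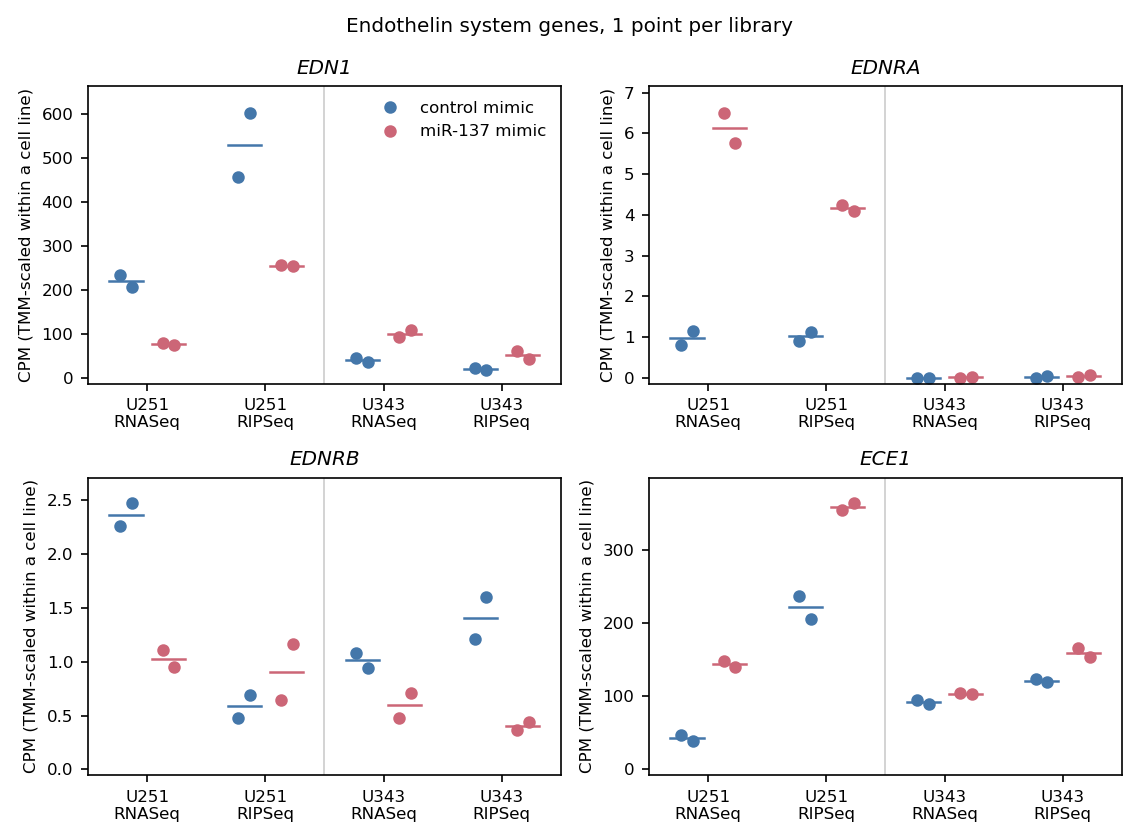
Level of each gene in every library, in CPM on a linear axis that starts near 0, for control mimic (blue) and miR-137 mimic (red), with a bar at the mean of 2 libraries. EDN1 falls from 207.2 to 233.2 CPM to 75.03 to 79.85 CPM in U251 RNASeq and rises from 35.89 to 44.5 CPM to 92.67 to 108.9 CPM in U343 RNASeq, and EDNRA lies at the bottom of the axis in all U343 libraries.

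Within U251, EDN1 was ordered from RIPSeq control through RIPSeq miR-137 and RNASeq control to RNASeq miR-137, and no neighbouring groups overlapped. Within U343, it was ordered from RNASeq miR-137 through RIPSeq miR-137 and RNASeq control to RIPSeq control, and the ranges of RIPSeq miR-137 (43.05 to 60.4 CPM) and RNASeq control (35.89 to 44.5 CPM) overlapped. The opposite signs did not rest on the libraries that stood apart. Without U343 RNASeq miR-137 replicate 1 the U343 change was 1.43 on the log2 scale (SE 0.13), and without U251 RIPSeq control replicate 1 or 2 the U251 RIPSeq change was -1.21 or -0.93. Endothelial cells are the classical source of EDN1, and all 6 endothelial markers examined (PECAM1, CDH5, VWF, KDR, TEK and CLDN5) were detected at a low sum. Their summed level in RNASeq was 25.7 to 27.1 CPM in U251 controls and 22.4 to 28.8 CPM with miR-137, and 63 to 65.1 CPM in U343 controls and 44 to 53.3 CPM with miR-137. In RIPSeq it was 13.7 to 14.7 CPM and then 24.1 to 25.4 CPM in U251, and 60.1 to 68.1 CPM and then 37.7 to 39.5 CPM in U343. The sum moved in the direction opposite to EDN1 in U343 and in U251 RIPSeq, but it mixes genes that differed between the lines. In control RNASeq KDR was lower in U343 than in U251 (log2 -4.89), and CDH5, TEK, VWF and PECAM1 were higher (7.80, 7.53, 5.83 and 1.39). CLDN5 was under the low-count filter there. CDH5 and PECAM1 were under that filter in the fit of the U251 libraries alone, so the sizes of their differences rest on few U251 reads. The part of this sum in the EDN1 result was not tested.

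EDN2, which encodes the closely related peptide endothelin-2 and is not a member of the set, also had opposite responses in the total RNA of the 2 lines. The list that holds EDN2 was chosen with earlier results of these data known, so EDN2 is not an independent check on EDN1. In U251 RNASeq it had 46 and 69 reads in the controls and 5 and 0 reads with miR-137. In U343 RNASeq it had 12 and 11 reads in the controls and 188 and 93 reads with miR-137. In U343 RIPSeq it had 8 and 13 reads in the controls and 139 and 124 reads with miR-137. The groups did not overlap in any of these experiments, with EDN2 low after miR-137 in U251 total RNA and high after miR-137 in both U343 assays. Tests used edgeR's quasi-likelihood method with Benjamini-Hochberg adjustment over all genes of a fit. The fitted EDN2 fall in U251 RNASeq was 3.95 on the log2 scale (SE 0.58). It is given without a test, because EDN2 passed the low-count filter there only through the controls. EDN2 rose by 3.59 on that scale in U343 RNASeq (SE 0.47, edgeR adjusted p = 0.0154). In U343 RIPSeq the fitted rise was 13.5-fold (log2 3.76, SE 0.28), given without a test because the filter was passed only through the miR-137 libraries. In U251 RIPSeq EDN2 had 108 and 102 reads in the controls and 154 and 144 with miR-137, a log2 change of 0.44 (edgeR adjusted p = 0.429). The U343 RNASeq call was lost without control replicate 1 or 2, where the log2 change was 3.51 or 3.66. Those fits take their spread from the miR-137 pair, which stood apart. EDN3, the third endothelin gene, had 0 to 14 reads in every library and was not compared.

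EDNRA, the receptor with the higher affinity for endothelin-1 over endothelin-3 (hg18, chromosome 4, 148621519 to 148685556, plus strand), was higher after miR-137 in U251 and was at 0 to 3 reads per library in U343. In U251 RNASeq it had 13 and 19 reads in the controls and 76 and 67 reads with miR-137, or 0.8149 and 1.148 CPM against 6.497 and 5.772 CPM. In U251 RIPSeq it had 23 and 29 reads in the controls and 105 and 106 reads with miR-137, or 0.9157 and 1.119 CPM against 4.253 and 4.105 CPM. The miR-137 libraries were above the controls in both assays. EDNRA rose 6.36-fold in U251 RNASeq (log2 2.67, 95% interval 2.06 to 3.28, edgeR adjusted p = 4.02e-06). In U251 RIPSeq the fitted change was 3.89-fold (log2 1.96, 95% interval 1.23 to 2.69) with an edgeR adjusted p of 0.0617 and an unadjusted p of 0.00116. With DESeq2 that value passed the threshold (adjusted p = 0.00587). Without U251 RIPSeq control replicate 1 or 2, which stood apart from each other, the log2 change was 1.92 or 2.09. A fit that leaves 1 control takes its spread from the miR-137 pair, so no test is read from it. In the 8 U343 libraries EDNRA had 0 to 3 reads, which fell under the low-count filter, and no response to miR-137 was detectable there at this depth. Smooth muscle and pericytes express EDNRA in many tissues. The summed level of their 5 markers was 7.07 to 7.65 CPM in U251 RNASeq controls and 7.93 to 9.75 CPM with miR-137, and in U251 RIPSeq it was 6.37 to 9.16 CPM and then 12.6 to 14.2 CPM. In U343 the sum went from 19.4 to 31.3 CPM to 91.4 to 158 CPM in RNASeq while EDNRA stayed at 0 to 1 reads. Its part in the EDNRA response of U251 was not tested.

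EDNRB, the receptor that binds all endothelins alike (hg18, chromosome 13, 77367617 to 77447665, minus strand), was at a low level in both lines and was lower after miR-137 in U251 total RNA and in U343 PABP-bound RNA. In U251 RNASeq it had 36 and 41 reads in the controls and 13 and 11 with miR-137. In U343 RIPSeq it had 53 and 63 reads in the controls and 14 and 17 with miR-137. The groups did not overlap in either experiment. EDNRB fell 2.23-fold in U251 RNASeq (log2 -1.16, 95% interval -1.87 to -0.44, edgeR adjusted p = 0.00873) and 3.41-fold in U343 RIPSeq (log2 -1.77, 95% interval -2.43 to -1.11, edgeR adjusted p = 0.00129). In U343 RNASeq the controls had 51 and 37 reads and the miR-137 libraries 21 and 31, a log2 change of -0.76 (95% interval -1.55 to 0.03, edgeR adjusted p = 0.146). In U251 RIPSeq the controls had 12 and 18 reads and the miR-137 libraries 16 and 30, a log2 change of 0.56 (95% interval -0.79 to 1.91, edgeR adjusted p = 0.601). The U343 RNASeq groups were apart with the controls higher, whereas the U251 RIPSeq groups overlapped. The U251 RNASeq call was lost with DESeq2 (adjusted p = 0.0894), in a joint edgeR fit of the 8 U251 libraries (adjusted p = 0.0782), without control replicate 2 (edgeR adjusted p = 0.062) and without miR-137 replicate 2 (edgeR adjusted p = 0.0671). Melanocytes are another known site of EDNRB, and the summed level of 5 melanocyte markers was 1.12 to 5.83 CPM over all groups. In U343 RIPSeq that sum was 5.8 to 5.83 CPM in the controls and 4.39 to 4.64 CPM with miR-137, and its part in the fall of EDNRB was not tested.

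ECE1, which encodes the membrane protease that releases the active peptide (hg18, chromosome 1, 21416327 to 21544621, minus strand), rose after miR-137 in U251 total RNA and to a smaller extent in U343 PABP-bound RNA. In U251 RNASeq it stood at 46.95 and 38.41 CPM in the controls and at 148.5 and 140.2 CPM with miR-137. In U343 RIPSeq it stood at 123.1 and 119.3 CPM in the controls and at 165.3 and 153.2 CPM with miR-137. Both pairs of groups were separate, by a wide gap in U251. The rise was 3.47-fold in U251 RNASeq (log2 1.80, 95% interval 1.49 to 2.10, edgeR adjusted p = 2.58e-07) and 1.32-fold in U343 RIPSeq (log2 0.40, 95% interval 0.21 to 0.60, edgeR adjusted p = 0.00472). In U251 RIPSeq ECE1 stood at 237.4 and 205.5 CPM in the controls and at 354.7 and 363.7 CPM with miR-137, a log2 change of 0.61 (95% interval -0.03 to 1.25, edgeR adjusted p = 0.265). In U343 RNASeq it stood at 94.27 and 90.11 CPM and then at 104.8 and 102.7 CPM, a log2 change of 0.18 (95% interval -0.06 to 0.41, edgeR adjusted p = 0.225). In each of the 4 experiments both miR-137 libraries were above both controls, although 2 of the 4 changes did not pass the test. The U251 RIPSeq change was 0.83 on the log2 scale without control replicate 1 and 0.50 without control replicate 2. ECE2, a second converting enzyme, had 45 to 181 reads in U251 and 417 to 790 in U343, and its annotated span overlaps CAMK2N2 by 2249 bases, so its reads may include those of that gene. None of the 4 members overlaps another listed gene.

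**Figure D2:**
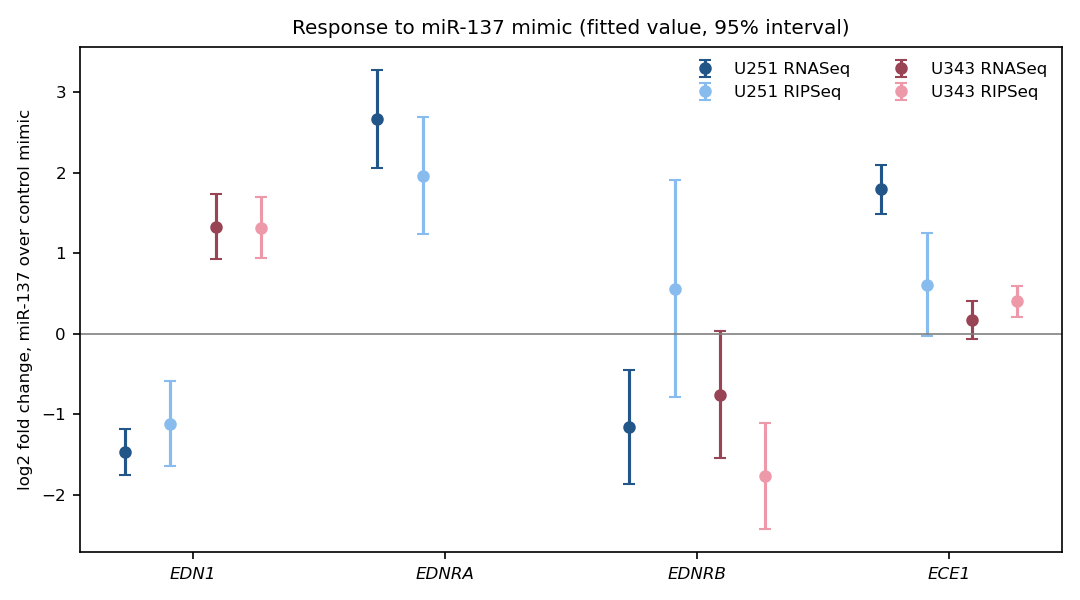
Fitted log2 fold change of miR-137 over control mimic for each gene, with the 95% interval of the edgeR fit, in the 4 experiments. EDN1 lies below 0 in U251 (-1.47 and -1.12) and above 0 in U343 (1.33 and 1.32), where its points are a description because they chose the gene, and EDNRA has no U343 point because it had 0 to 3 reads there.

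Leaving EDN1 aside, all 3 other members passed the test in U251 RNASeq, where 57.7% of all genes tested did (2 of the 3 with DESeq2). In U343 RIPSeq both members tested passed, against 56.3% of all genes. In U251 RIPSeq 0 of 3 passed, against 1.21% of all genes, with 1 at an unadjusted p under 0.05 and 1 by DESeq2. In U343 RNASeq 0 of 2 passed, against 20% of all genes, with 0 at an unadjusted p under 0.05 and 0 by DESeq2. In the 2 experiments where members were called, most of the genes tested were called too. At the 48 h measured here, the receptor and enzyme changes in U251 total RNA had different signs, EDNRA and ECE1 being higher and EDNRB lower. A rule that asked for Fisher's exact test to pass in all 4 pairings of control with miR-137 libraries, with no low-count filter, called 2 of 3 members in U251 RNASeq (8.35% of all genes), 1 of 3 in U251 RIPSeq (4.95%), 0 of 3 in U343 RNASeq (4.39%) and 1 of 3 in U343 RIPSeq (8.24%). Leaving out either U251 RIPSeq control changed the number of members called there. A group of 1 library has no spread of its own, so those calls are not used.

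The difference of the miR-137 response between the lines was then fitted as an interaction of transfection and line within each assay. For EDN1 it was 2.79 on the log2 scale in RNASeq and 2.49 in RIPSeq, U343 minus U251, and it was not tested because the gene was chosen on it. For ECE1 in RNASeq it was -1.63 (95% interval -2.04 to -1.22, edgeR adjusted p = 0.00123), the rise being larger in U251. For EDNRB in RNASeq it was 0.39 (95% interval -0.63 to 1.41, edgeR adjusted p = 0.556). EDNRA entered the fits of both assays only through U251, so its test is not used. In RNASeq ECE1 passed and EDNRB did not, against 25.2% of all genes. In RIPSeq neither ECE1 nor EDNRB passed, against 3.28% of all genes, with 1 at an unadjusted p under 0.05 and 1 by DESeq2. That gene was EDNRB, with a difference of -2.28 (95% interval -3.63 to -0.92, edgeR adjusted p = 0.0791, DESeq2 adjusted p = 0.0234). Without U251 RIPSeq control replicate 1 or 2 the EDNRB difference was -2.15 or -2.49. ECE1 in RIPSeq differed by -0.15 (95% interval -0.77 to 0.47, edgeR adjusted p = 0.796). For EDN2 the difference was 7.55 in RNASeq, given without a test because the U251 miR-137 group had 5 and 0 reads. In RIPSeq the EDN2 difference was 3.37, given without a test because the U343 control group had 8 and 13 reads. Without U343 RNASeq miR-137 replicate 1, ECE1 in RNASeq differed by -1.65 and EDN2 by 6.94. The EDN2 difference in RIPSeq was 2.99 without U343 RIPSeq control replicate 1 and 3.82 without U343 RIPSeq control replicate 2.

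PABP binds the poly(A) tail, and the ratio of RIPSeq to RNASeq gives the share of a transcript in PABP-bound RNA relative to that of the typical gene. EDN1 was enriched in the PABP-bound RNA of U251 and depleted in that of U343. In U251 its fold over total RNA was 2.60 in the controls (log2 1.38, edgeR adjusted p = 0.00175) and 3.22 with miR-137 (log2 1.69, edgeR adjusted p = 0.00161). In U343 it was 1.88-fold lower in bound RNA in the controls (log2 -0.91, edgeR adjusted p = 0.0113) and 1.89-fold lower with miR-137 (log2 -0.92, edgeR adjusted p = 0.0102). ECE1 was enriched in every condition. Its fold in U251 was 5.73 in the controls (log2 2.52, edgeR adjusted p = 0.000685) and 2.43 with miR-137 (log2 1.28, edgeR adjusted p = 0.00745), and in U343 1.35 (log2 0.43, edgeR adjusted p = 0.0061) and 1.58 (log2 0.66, edgeR adjusted p = 0.00122). EDNRB was 3.70-fold lower in the bound RNA of U251 controls (log2 -1.89, edgeR adjusted p = 0.00782), while its other 3 ratios, -0.22, 0.50 and -0.51 on the log2 scale, had edgeR adjusted p of 0.739, 0.181 and 0.249. The 2 EDNRA ratios in U251 were 0.17 in the controls (95% interval -0.50 to 0.84, edgeR adjusted p = 0.677) and -0.59 with miR-137 (95% interval -1.12 to -0.06, edgeR adjusted p = 0.0979). Without U251 RIPSeq control replicate 1 or 2 the EDNRA value with miR-137 was -0.53 or -0.60.

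In U251 3 of 4 members passed in the controls, against 40.5% of all genes, and 2 of 4 with miR-137, against 24.8%. In U343 2 of 3 passed in the controls, against 33.9% of all genes, and 2 of 3 with miR-137, against 35.2%. Several of these calls were lost when 1 library was left out. In U343 the EDN1 call was lost without RNASeq control replicate 1 (edgeR adjusted p = 0.0652), without RIPSeq control replicate 2 (0.0839) and, for miR-137, without RIPSeq miR-137 replicate 2 (0.0583). The ECE1 call in U251 with miR-137 was lost without any one of the 4 miR-137 libraries of U251 (0.0643 to 0.0771), and in U343 controls without either RNASeq control (0.0519 and 0.0563). The EDNRB call in U251 controls was lost without RNASeq control replicate 2 (0.059).

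**Figure D3:**
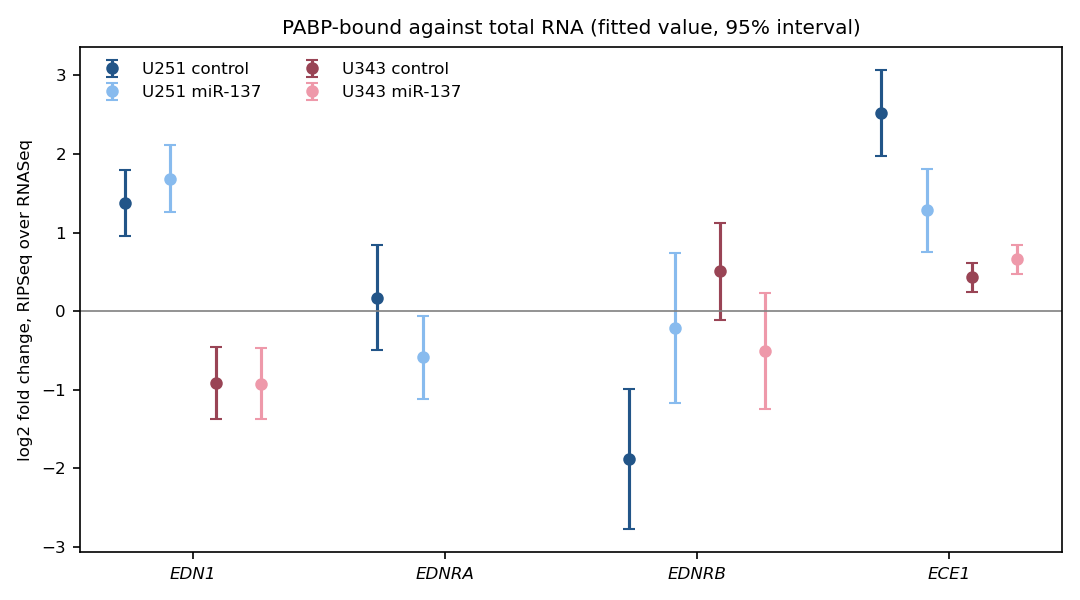
Fitted log2 fold change of PABP-bound RNA (RIPSeq) over total RNA (RNASeq) for each gene, with the 95% interval of the edgeR fit, in control and miR-137 transfections of both lines. EDN1 lies above 0 in U251 (1.38 and 1.69) and below 0 in U343 (-0.91 and -0.92), and ECE1 lies above 0 in all 4 conditions.

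Whether miR-137 changed bound and total RNA unequally was asked with the interaction of transfection and assay. No member tested passed, 0 of 3 in U251 against 0.134% of all genes and 0 of 2 in U343 against 0.00649%. At an unadjusted p under 0.05 there were 2 in U251 and 1 in U343, and DESeq2 called 1 in U251 and 0 in U343. In U251 the ECE1 change was smaller in bound RNA by -1.24 on the log2 scale (95% interval -1.98 to -0.50, edgeR adjusted p = 0.13, DESeq2 adjusted p = 0.0272). Without U251 RIPSeq control replicate 1 or 2 this difference was -0.90 or -1.35. The EDNRB difference in U251 was 1.67 (95% interval 0.37 to 2.97, edgeR adjusted p = 0.195), and 1.93 without U251 RIPSeq control replicate 2. In U343 it was -1.01 for EDNRB (95% interval -1.98 to -0.05, edgeR adjusted p = 0.269) and 0.23 for ECE1 (95% interval -0.03 to 0.49, edgeR adjusted p = 0.344). For EDN1 the differences, not tested, were 0.31 in U251 and -0.01 in U343.

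Without miR-137, EDN1 and EDNRB were lower and ECE1 was higher in the total RNA of U343 than in that of U251, with cell line and kit not separable. EDN1 was 5.21-fold lower in U343 than in U251 (log2 -2.38, 95% interval -2.66 to -2.10, edgeR adjusted p = 2.04e-07). EDNRB was 2.21-fold lower (log2 -1.15, edgeR adjusted p = 0.00217) and ECE1 2.27-fold higher (log2 1.18, edgeR adjusted p = 1.02e-05). EDNRA had 32 reads in the 2 U251 controls and 0 in the 2 U343 controls. When 3 reads over the group are taken as the limit that a count of 0 allows, the U251 level was 27.0-fold above that limit. The limit is 0.0352 CPM, against 0.95 CPM in U251. It covers the counting error of the U343 reads only, and the U251 level enters as a point value without the counting error of its 32 reads. EDNRA passed the low-count filter only through U251, so its test is not used. EDN1, EDNRB and ECE1 all passed, against 84.8% of all genes, and the median gene was shifted by 0.104 on the log2 scale.

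In PABP-bound RNA of the controls EDN1 was 26.1-fold lower in U343 (log2 -4.71, 95% interval -5.43 to -3.99, edgeR adjusted p = 0.00105), and EDN1 and ECE1 passed but EDNRB did not, against 35.4% of all genes. EDNRA had 52 reads in U251 against only 2 in U343, and the ratio was 43.7 with an exact counting interval of 11.5 to 371.0, which is given without a test for the same reason. ECE1 was 1.90-fold lower in U343 here (log2 -0.93, edgeR adjusted p = 0.0423), opposite in sign to total RNA. EDNRB had a log2 difference of 1.21 (95% interval 0.09 to 2.33, edgeR adjusted p = 0.087), and of 1.04 or 1.37 without U251 RIPSeq control replicate 1 or 2. The ECE1 call was lost under upper-quartile scaling (edgeR adjusted p = 0.0743), without a low-count filter (0.0848), with a minimum of 50 reads on average (0.051) and without either U343 RIPSeq control (0.569 and 0.62).

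Interferon-induced genes had a high summed level in 7 of the 8 miR-137 libraries, and this level was set beside EDN1. Over 12 such genes the summed level was 139 to 229 CPM in the U251 controls and 11500 to 11700 CPM in the U251 miR-137 libraries, which all had lower EDN1 than the controls of their assay. In U343 RNASeq, EDN1 stood at 92.67 CPM in miR-137 replicate 1, where the sum was 154 CPM, and at 108.9 CPM in replicate 2, where it was 12900 CPM. The U343 RNASeq controls had 44.5 and 35.89 CPM of EDN1, and any link between EDN1 and the interferon-induced genes was not tested. EDN2 had 188 reads in the first of these libraries and 93 in the second, against 12 and 11 in the controls. EDNRB had 21 and 31 reads and ECE1 104.8 and 102.7 CPM in the same libraries. The leukocyte marker CD68 stood at 4.381 CPM in replicate 1 and at 33.07 CPM in replicate 2, against 3.744 and 3.477 CPM in the controls, while of the other 3 markers in that list AIF1 is not in the tables and CD3E had 0 reads in the U251 RNASeq controls. The summed leukocyte level was 8.02 to 10.5 CPM in U251 RNASeq controls and 77.1 to 83.1 CPM with miR-137. Nearly all of it was CD68, at 7.46 and 10.39 CPM in those controls and at 82.33 and 76.93 CPM with miR-137. PTPRC and CD3E made up the small rest, and the part of this sum in any member's change was not tested.

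**Figure D4:**
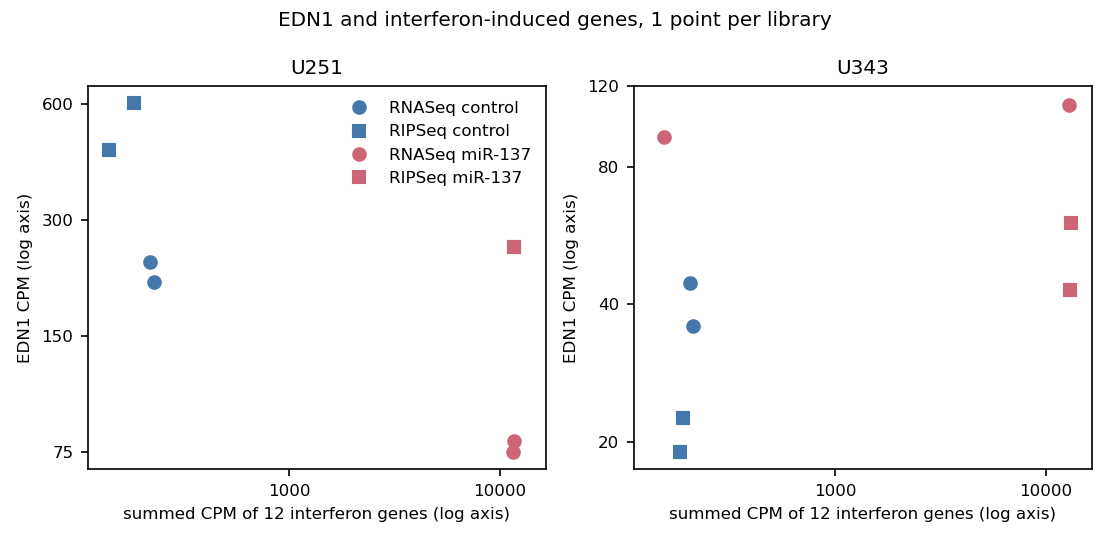
EDN1 level in CPM against the summed level of 12 interferon-induced genes in CPM, both on log axes, 1 point per library and 1 panel per line, with circles for RNASeq and squares for RIPSeq. The U343 RNASeq miR-137 library at 154 CPM of interferon-induced genes has an EDN1 level of 92.67 CPM, above both controls of its assay.

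The rest of the pathway was described with 6 lists holding 87 genes, from convertases and peptidases to G proteins, receptor desensitisation, regulators of EDN1, partners of EDNRB and other vasoactive systems. In U251 RNASeq 27 of the 71 genes tested rose and 24 fell (71.8% called, against 57.7% of all genes, with a median log2 change of 0.12 against 0.02). In U343 RIPSeq 23 of 70 rose and 24 fell (67.1% against 56.3%, median -0.03 against 0.00487). In U343 RNASeq 6 of 69 rose and 9 fell (21.7% against 20%, median 0.14 against 0.02). In U251 RIPSeq 1 of 77 rose and 0 fell (1.3% against 1.21%, median 0.14 against -0.02), with 8 and 1 by DESeq2. These counts moved when a library that stood apart was left out, in U343 RNASeq and in U251 RIPSeq. A group of 1 library has no spread of its own, so the counts without those libraries are not used here. Every U343 RNASeq call named from these lists was also lost without either U343 RNASeq control, although the controls did not stand apart. Those fits take their spread from the miR-137 pair, which did stand apart, so they cannot tell whether the calls rest on 1 control.

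Among ligands and peptidases, 3 of 6 rose and 2 fell in U251 RNASeq (57.7% of all genes called), and 0 of 6 passed in U251 RIPSeq (1.21%). In U343, 1 of 7 rose and 1 fell in RNASeq (20% of all genes), and 2 of 7 rose and 2 fell in RIPSeq (56.3%). FURIN, a convertase that cuts the endothelin precursor, fell in U343 by 1.56 on the log2 scale in RNASeq (edgeR adjusted p = 0.00652) and by 1.36 in RIPSeq (edgeR adjusted p = 1.65e-05). PCSK7, a convertase of the same family, rose by 0.84 in U251 RNASeq (edgeR adjusted p = 0.000506). MME, the neutral endopeptidase neprilysin that breaks down endothelins, fell by 0.81 in U251 RNASeq (edgeR adjusted p = 0.00198) and by 1.12 in U343 RIPSeq (edgeR adjusted p = 0.00186).

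Of the G proteins and effectors through which the receptors signal, 3 of 20 rose and 7 fell in U251 RNASeq (57.7% of all genes called), and 0 of 21 passed in U251 RIPSeq (1.21%). In U343, 3 of 20 rose and 2 fell in RNASeq (20% of all genes), and 8 of 21 rose and 7 fell in RIPSeq (56.3%). The protein kinase C genes moved apart. PRKCD rose by 1.77 in U251 RNASeq (edgeR adjusted p = 0.00022) and by 1.15 in U343 RIPSeq (edgeR adjusted p = 0.000221), whereas PRKCA fell by 1.22 (edgeR adjusted p = 7.77e-06) and by 1.07 (edgeR adjusted p = 0.00318). GNA13, a G protein alpha subunit, rose by 1.12 in U251 RNASeq (edgeR adjusted p = 6.7e-06). In U343 RNASeq the phospholipase C gene PLCB4 rose by 1.59 and PLCB1 fell by 1.03, with ITPR1, an inositol trisphosphate receptor, at -0.99 on the log2 scale (edgeR adjusted p = 0.00936, 0.0166 and 0.0128 in that order). PLCB1 fell by 1.33 in U343 RIPSeq as well (edgeR adjusted p = 0.000857).

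In the list of receptor desensitisation, 3 of 10 rose and 3 fell in U251 RNASeq (57.7% of all genes called), and 1 rose in U251 RIPSeq (1.21%). In U343, 1 rose and 1 fell in RNASeq (20% of all genes), and 3 rose and 4 fell in RIPSeq (56.3%). RGS2, which switches off Gq signalling, rose 10.3-fold in U251 RNASeq (log2 3.36, edgeR adjusted p = 5.67e-10), 7.95-fold in U251 RIPSeq (log2 2.99, edgeR adjusted p = 0.034) and 1.91-fold in U343 RIPSeq (log2 0.93, edgeR adjusted p = 0.00286). RGS4, of the same family, rose by 1.95 in U343 RNASeq (edgeR adjusted p = 0.0425) and by 1.89 in U343 RIPSeq (edgeR adjusted p = 0.0012). Among the receptor kinases, GRK5 rose by 1.52 (edgeR adjusted p = 1.28e-05) and ADRBK2 fell by 0.99 (edgeR adjusted p = 7.61e-05) in U251 RNASeq, and GRK6 fell by 0.66 in U343 RNASeq (edgeR adjusted p = 0.0266) and by 1.03 in U343 RIPSeq (edgeR adjusted p = 3.57e-05).

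Of 18 regulators of EDN1 transcription and mRNA, 11 rose and 4 fell in U251 RNASeq (83.3% called, against 57.7% of all genes). In U343, 0 rose and 1 fell in RNASeq (5.56% against 20%) and 6 rose and 5 fell in RIPSeq (61.1% against 56.3%), and 0 passed in U251 RIPSeq (against 1.21%). KLF4, a transcription factor of endothelium and epithelium, rose by 2.48 in U251 RNASeq (edgeR adjusted p = 2.99e-07) and by 4.02 in U343 RIPSeq (edgeR adjusted p = 1.29e-05). KLF2, a related factor, rose by 1.77 in U251 RNASeq (edgeR adjusted p = 3.71e-05). ZFP36, which binds AU-rich elements and promotes mRNA decay, rose by 1.86 in U251 RNASeq (edgeR adjusted p = 6.2e-06) and by 1.81 in U343 RIPSeq (edgeR adjusted p = 7.08e-05). EPAS1, the hypoxia-inducible factor 2 alpha, fell by 0.82 in U343 RNASeq (edgeR adjusted p = 0.0444) and by 1.83 in U343 RIPSeq (edgeR adjusted p = 3.25e-05).

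Of the partners of EDNRB in the neural crest, 2 of 8 rose and 5 fell in U251 RNASeq (57.7% of all genes called), and 0 of 9 passed in U251 RIPSeq (1.21%). In U343, 1 of 7 rose and 3 fell in RNASeq (20% of all genes), and 3 of 7 rose and 2 fell in RIPSeq (56.3%). MITF, a transcription factor of melanocytes, stood at 17.6 and 19.07 CPM in U343 RNASeq controls and at 2.409 and 1.832 CPM with miR-137, a fall by 3.10 on the log2 scale (edgeR adjusted p = 0.00647), and it fell by 3.61 in U343 RIPSeq (edgeR adjusted p = 8.19e-06). KIT, a receptor tyrosine kinase, had 129 and 107 reads in U251 RNASeq controls and 7 and 5 with miR-137. The fitted fall of KIT was 3.76 on the log2 scale, given without a test because it passed the low-count filter only through the controls. GFRA1, a co-receptor for the ligand of RET, fell by 3.98 in U251 RNASeq (edgeR adjusted p = 6.33e-10), by 1.12 in U343 RNASeq (edgeR adjusted p = 0.0163) and by 1.94 in U343 RIPSeq (edgeR adjusted p = 5.22e-05). RET itself rose by 2.12 in U343 RIPSeq (edgeR adjusted p = 0.000282). SNAI2, a repressor active in migrating crest cells, fell by 1.40 in U251 RNASeq (edgeR adjusted p = 4.15e-06) and rose by 0.98 in U343 RNASeq (edgeR adjusted p = 0.0444).

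Among other vasoactive systems, 5 of 9 rose and 3 fell in U251 RNASeq (57.7% of all genes called), and 0 of 13 passed in U251 RIPSeq (1.21%). In U343, 0 of 7 rose and 1 fell in RNASeq (20% of all genes), and 1 of 7 rose and 4 fell in RIPSeq (56.3%). PTGS2, the inducible cyclooxygenase, rose by 2.48 in U251 RNASeq (edgeR adjusted p = 1.57e-06) and by 3.78 in U343 RIPSeq (edgeR adjusted p = 4.76e-05). CALCRL, the receptor chain for adrenomedullin, fell by 1.66 in U251 RNASeq (edgeR adjusted p = 1e-06), by 1.79 in U343 RNASeq (edgeR adjusted p = 0.00724) and by 1.66 in U343 RIPSeq (edgeR adjusted p = 2.61e-05). VEGFA, the vascular growth factor, rose by 1.40 in U251 RNASeq (edgeR adjusted p = 1.44e-06), and NPR2, a natriuretic peptide receptor, fell by 0.56 in U343 RIPSeq (edgeR adjusted p = 0.00229).

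**Figure D5:**
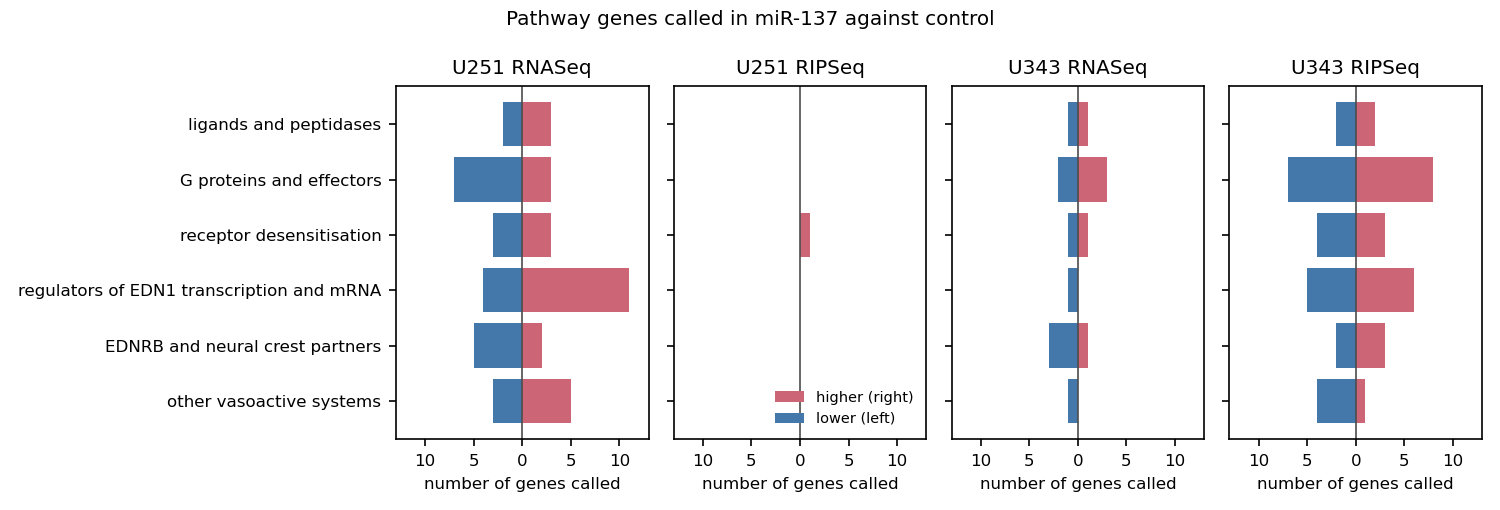
Number of genes of each pathway list called higher (red, to the right) or lower (blue, to the left) after miR-137 in the 4 experiments, by edgeR at an adjusted p under 0.05. The regulators of EDN1 show 11 higher and 4 lower genes in U251 RNASeq, and only RGS2 is called in U251 RIPSeq.

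For each member the genes with the most similar pattern were found by Pearson correlation of log2 CPM over the 16 libraries, after subtracting the mean of each line and assay, among about 11077 genes. These points share libraries and depth, and the values are a description. EDN1 was most like IRS1 (r = 0.982), TUFT1 (0.974) and TNFAIP2 (0.971). IRS1, an adaptor of the insulin receptor, had log2 fold changes of -0.86 in U251 RNASeq, -0.57 in U251 RIPSeq, 0.82 in U343 RNASeq and 0.80 in U343 RIPSeq, which are not tested because its pattern chose it. EDNRA was most like GBP4 (r = 0.962), RGS2 (0.958) and SLC25A37 (0.952), but its U343 values rest on 0 to 3 reads. EDNRB was most like SNRPG (r = 0.912), UQCRB (0.906) and H2AFV (0.894), at 11 to 63 reads per library for EDNRB. ECE1 was most like SLCO4A1 (r = 0.986), SLC9A8 (0.98) and KIAA0913 (0.98).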

How the data were processed

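RNASeq and RIPSeq libraries of U251 and U343 cells were analysed from 16 deposited tables of raw counts, 1 per sample. The authors used RMAP to align reads to hg18 and counted reads over 1 merged transcript model per RefSeq gene; the treatment of reads with several matches is not given in the sources used here. SLC35E2, on 2 lines of the U251 tables, was used from its first line. Counts were tested with edgeR 4.0.16 in R 4.3.3 (limma 3.58.1): TMM scaling, filterByExpr, quasi-likelihood F test, Benjamini-Hochberg adjustment over all genes of a fit, threshold 0.05. miR-137 comparisons used the 4 libraries of an experiment, bound against total RNA the 8 of a line, line comparisons the 4 controls of an assay, and differences between lines the 8 of an assay. The scripts were tested on simulated data.

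The members and lists were chosen with earlier results of these data known. Named genes were the members, EDN2, EDN3 and ECE2, and in each list and miR-137 comparison up to 3 called genes with the largest absolute log2 fold change, at least 50 reads on average in the higher group and 1 direction in all 4 pairs. Likeness used genes of at least 5 CPM and a prior count of 2. KIT, MITF, KLF4, PTGS2 and ZFP36 values by library were added after their values were seen. The labels do not say whether replicates were separate cultures, so p-values measure the spread between these samples, which may be technical. Alternatives were DESeq2 1.42.0, upper-quartile scaling, no filter, a mean of at least 50 reads, the replicate number as a block, fitting both assays of a line jointly, a Fisher rule and leaving out each library. The Fisher rule compared each control with each miR-137 library and called a gene only where all 4 pairs had a change in odds above 2 and an adjusted p below 0.001. An additional U251 replicate was not analysed here.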

Additional observations from a re-analysis of the deposited data

Results flagged for a closer look

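Each gene below had a response to miR-137 that differed between the cell lines, given as the log2 fold change in U343 minus that in U251. For EDN1 the difference was 2.79 in RNASeq and 2.49 in RIPSeq, because all libraries of 1 line moved one way and those of the other line the opposite way, and it was not tested. The other differences passed edgeR's test of the interaction of transfection and line at an adjusted p under 0.05. Those of KIT in RNASeq and of EDN2 in both assays are given as values only.

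In RNASeq the response was lower in U343 for ECE1 (-1.63), FURIN (-2.36), PCSK7 (-0.685), GNA13 (-0.814), ITPR1 (-1.62), GRK5 (-1.85), RGS2 (-2.97), EPAS1 (-1.35), KLF2 (-2.31), MITF (-2.24), NPR2 (-1.29) and VEGFA (-1.89). It was higher in U343 for EDN2 (7.55), PLCB4 (1.99), PRKCA (1.87), ADRBK2 (0.853), RGS4 (1.58), SNAI2 (2.38), KIT (5.37) and GFRA1 (2.85). KIT had 1 to 8 reads per U343 library, so its difference rests on the fall in U251 and on very few U343 reads, and its test is not used. The EDN2 difference in RNASeq rests on a U251 miR-137 group of 5 and 0 reads, and the EDN2 test there is not used either. The RIPSeq difference of EDN2 rests on a U343 control group of 8 and 13 reads, so its test is also not used. In RIPSeq the response was lower in U343 for RGS2 (-2.01), EPAS1 (-2.58) and MITF (-3.46) and higher for EDN2 (3.37) and KLF4 (3.53). Cell line and library kit cannot be told apart in these differences. Those in RNASeq also include U343 miR-137 replicate 1, which stood apart from replicate 2.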

How the results depend on the processing

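Depth limits EDNRA, EDNRB and EDN2 most: EDNRA had 0 to 3 reads per U343 library, and EDNRB 11 to 63 reads in all. With 2 libraries a group, no sample could be called an outlier within its group. For the 4 members, 237 of 249 values under other tools, scalings, filters, pairings and sample sets kept their direction and their side of the threshold or their size, and 0 reversed. With 1 library left out, 282 of 319 values did so and 4 reversed. Another 4 values, all of the EDN1 interaction with assay in U343, also changed sign, from -0.01 to between 0.08 and 0.21. They are not counted as reversed because the value of -0.01 was smaller than the spread between replicates. For the other pathway genes this held for 446 of 455 values and, with 1 library left out, for 359 of 448, with 5 reversed. A group left with 1 library was assumed to vary like the others, so a call gained in such a fit can come from losing the spread within that group. The cause of the changes that follow was not tested.

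The number of members called went from 3 to 1 in U251 RNASeq, from 2 to 1 in U343 RIPSeq, from 4 to 2 between lines in RNASeq and from 3 to 1 between lines in RIPSeq with a minimum of 50 reads on average, where fewer members were tested. The counts of 4 and 3 between lines include EDNRA, which passed the low-count filter only through U251. EDNRA was also among the members counted as tested for the interaction with line. In U251 RIPSeq it went from 0 to 1 with DESeq2, the replicate block, the joint fit and the Fisher rule, and in U343 RIPSeq from 2 to 1 with the Fisher rule. With DESeq2 it went from 0 to 1 for the interaction of transfection and assay in U251 and for the interaction with line in RIPSeq. Pathway genes higher and lower in U251 RIPSeq, 1 and 0 as reported, were 8 and 1 with DESeq2, 7 and 1 with the replicate block, 11 and 7 in the joint fit, and 0 higher without a filter. Pathway genes higher in U343 RNASeq went from 6 to 10 with DESeq2 and to 11 in the joint fit, and in U251 RNASeq the joint fit gave 15 higher and 8 lower in place of 27 and 24. Over all genes, U251 RIPSeq gave 133 higher and 37 lower genes, against 589 and 534 with DESeq2, 529 and 273 with the replicate block and 54 and 5 without a filter. U343 RNASeq gave 1254 higher genes, against 1963 with DESeq2. Upper-quartile scaling split the U251 RNASeq calls into 4588 higher and 3001 lower, against 3749 and 3780, and shifted the median gene by 0.156 on the log2 scale, with the signs of all 4 members kept and EDN1 at -1.33 in place of -1.47.

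When single libraries were dropped, the number of members called ranged from 0 to 2 in U251 RIPSeq, from 1 to 3 for bound against total RNA in U251 with miR-137, from 0 to 2 in U343 controls and from 1 to 2 in U343 with miR-137. It ranged from 1 to 4 between lines in RIPSeq, from 0 to 2 for the interaction with assay in U251 and from 0 to 2 for the interaction with line in RIPSeq. Pathway genes ranged from 1 to 37 higher and 0 to 28 lower in U251 RIPSeq, and from 0 to 17 higher and 0 to 14 lower in U343 RNASeq. Counts that rose came from fits with 1 library left in a group, which has no spread of its own, and are not read as added calls. Signs turned only in values that did not pass the test or, for EDN1, were not tested. On the log2 scale, bound over total RNA ranged from -0.14 to 0.36 for EDNRA in U251 controls, from -0.68 to 0.14 for EDNRB in U251 with miR-137, from -0.49 to 0.34 for EDN2 in U343 controls and from -0.32 to 0.73 for EDN2 in U343 with miR-137. The interaction with assay in U343 ranged from -0.27 to 0.78 for EDN2, and the interaction with line in RIPSeq from -0.40 to 0.00559 for ECE1 and from -1.87 to 1.94 for EDNRA.

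The replicate numbers did not pair the samples: differences between replicates 1 and 2 correlated at -0.249 to 0.309 between groups over 11068 genes, and at 0.028, -0.08, 0.099 and 0.309 between control and miR-137 of an experiment. With the replicate block, EDNRA passed in U251 RIPSeq (log2 1.96, edgeR adjusted p = 0.00701), ECE1 between lines in RIPSeq did not (edgeR adjusted p = 0.135), and no other member's call changed.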

Other observations

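Some pathway genes in U343 RNASeq differed strongly between the 2 miR-137 libraries, of which replicate 1 was at the control level of interferon-induced genes. KLF4 had 18 reads in replicate 1 and 534 in replicate 2, against 22 and 46 in the controls. PTGS2 had 159 and 3012 reads, against 146 and 90 in the controls, and ZFP36 had 85 and 233 reads, against 53 and 37. EDN2 and RGS4 were above both controls in both libraries, at 188 and 93 reads for EDN2 and at 1868 and 3127 reads for RGS4, against 479 and 763 reads in the RGS4 controls. MITF was below both controls in both libraries, at 105 and 80 reads against 832 and 746. These genes were singled out after their values were seen.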
